A study of Mus musculus with 6 samples.

Results

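The genes described here encode the cytosolic translation initiation factors (eIFs) and elongation factors (eEFs), together with the kinases, binding proteins and enzymes that share their gene names. They were chosen by symbol alone, as every gene that begins with Eif and a digit from 1 to 6, or with Eef. The Y-linked Eif2s3y was left out of the list. The rule found 64 of the 24411 genes in the deposited tables, and no measured value entered it.

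The libraries came from the corpus callosum, the main axon tract between the cortical hemispheres, dissected by hand from frozen brain sections of B6 mice on postnatal day 4. The series asks how N6-methyladenosine (m6A), a chemical mark on RNA, bears on the movement of neuronal mRNA into axons. It compares 3 libraries labelled Mettl14 cKO (conditional knockout of a subunit of the m6A writer enzyme) with 3 libraries labelled WT, and the labels name no other treatment. The Cre driver, the cells that lost the gene, the sex of the mice, and whether each library came from its own animal are not stated in the labels, so p-values measure the spread between these libraries only.

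Translation begins when eIF2, bound to GTP and the initiator tRNA, joins the small ribosomal subunit with eIF1, eIF1A, eIF3 and eIF5, and when the eIF4F complex of eIF4E, eIF4G and the helicase eIF4A brings in the capped mRNA. Elongation then runs on eEF1A, which delivers aminoacyl-tRNAs, on the eEF1B exchange factor that recharges it, and on eEF2, which moves the ribosome along the mRNA codon by codon. Neurons translate mRNA in axons as well as in cell bodies, and phosphorylation of eIF2, eEF2 and the eIF4E-binding proteins is a known control of that synthesis.

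Library depth ran from 670462 to 1208382 expected counts in cKO and from 843647 to 1268430 in WT, with 10113 to 10875 and 10591 to 11110 genes above 0. Both replicate 2 libraries stood apart by larger depth and shorter fragments (mean 292.7 bases in cKO replicate 2 and 304.3 in WT replicate 2, against 332.4 to 350.5 in the others). Of 485 genes with at most 3 exons, cKO replicate 2 left 9.07% and WT replicate 2 left 19.6% without more than 1 count, against 32.6% to 52.2% in the other 4 libraries. Mettl14 itself was too sparse to check the labels: it had 2, 7 and 2 counts in cKO and 11, 8 and 5 in WT, and the ranges overlap. Xist, the RNA of the inactive X, had 2323 to 4618 counts in cKO and 0 in WT, and Y-linked Ddx3y, Uty and Kdm5d were at 0 in cKO and at 5 to 92 counts in WT, so genotype and sex cannot be told apart. Markers of the tissue also differed: 9 oligodendrocyte markers summed to 2.00 to 10.8 CPM (counts scaled to library size by the TMM method) in cKO and 2536 to 4122 in WT. Of these, Mag, Enpp6 and Myrf were at 0 in every cKO library and had counts in every WT library. Mobp was at 0 in both groups, and Mog had 1 count in WT replicate 3 and 0 elsewhere. The 7 astrocyte markers summed to 2674 to 2860 CPM in cKO and 9135 to 10377 in WT, and the 8 excitatory neuron markers to 4729 to 5299 in cKO and 375 to 968 in WT. In bulk tissue, fewer cells of a type and less RNA per cell cannot be told apart, and the part of this make-up in the values below was not tested.

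Many factor mRNAs are known to begin with a run of pyrimidines that couples their translation to mTORC1. The annotated starts of 6 members are shown because these genes carry the levels and paralog pairs described below. Each line gives 20 bases before and 20 bases after the start on the transcribed strand, from RefSeq on GRCm38.p6, with the longest run of C and T bases in capitals.
Eef1a1, chr9:78481705-78481744, minus strand: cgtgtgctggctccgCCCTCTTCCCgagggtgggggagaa
Eef1a2, chr2:181156996-181157035, minus strand: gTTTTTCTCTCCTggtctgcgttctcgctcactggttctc
Eif3f, chr7:108934395-108934434, plus strand: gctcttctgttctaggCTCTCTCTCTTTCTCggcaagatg
Eif2s3x, chrX:94212632-94212671, minus strand: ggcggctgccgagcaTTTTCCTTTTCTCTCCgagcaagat
Eif4a1, chr11:69672404-69672443, minus strand: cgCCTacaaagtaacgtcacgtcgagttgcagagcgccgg
Eif4a2, chr16:23107448-23107487, plus strand: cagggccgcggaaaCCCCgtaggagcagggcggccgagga
The run spans 10 bases in Eef1a1, 12 in Eef1a2, 15 in Eif3f and 16 in Eif2s3x, against 3 in Eif4a1 and 4 in Eif4a2. In Eef1a2, Eif4a1 and Eif4a2 it lies wholly before the annotated start, so an RNA that begins there would not hold it. A run of at least 8 bases, read on the transcribed strand, lay in this window for 11 of the 50 members with a listed start (22%), for 20.4% of 4572 tested genes and for 16% of all 32851 listed starts. The match describes these letters only, and 14 members had no listed start.

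By the edgeR test, no factor gene differed between cKO and WT past the threshold. DESeq2 called Eif4a2 higher, where it called 2.59% of 7019 genes higher. Its other call, Eif3e, rests on 2 high cKO libraries and is not read as a result. Eef1a1 and Eef2, the main elongation factor genes, had the highest mean levels per transcript length. The members held 3.27%, 2.72% and 3.62% of all counts in cKO replicates 1 to 3, and 3.20%, 2.52% and 3.45% in WT. In TPM, the deposited scale that divides by transcript length and library total, they summed to 25302 ± 2780 in cKO and 22043 ± 1367 in WT (SD, n = 3 each). Without Eef1a1 and Eef2 the sums were 11754 ± 196 TPM in cKO and 11346 ± 730 in WT, which differ by less than the WT spread. Of the 64 members, 60 had a count in some library and 45 passed the filter on low counts; edgeR's quasi-likelihood test called none of these at an adjusted p below 0.05, and the smallest adjusted p was 0.181. The same test called 0.49% of 5918 genes higher in cKO and 0.422% lower.

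At an unadjusted p below 0.05 the edgeR test gave 5 members (11.1% of those tested, against 12.6% of all genes). Eif4a2, Eif2s3x, Eif1b and Eif1ad were higher in cKO by this measure and Eif2b4 was lower. DESeq2 called Eif4a2 higher in cKO. It also called Eif3e, which passed its filter only through 2 high cKO libraries while the other cKO library was at 0. Over all genes DESeq2 called 2.59% of 7019 higher and 1.54% lower. limma-voom called none. Among tested members, the log2 fold change of cKO over WT was positive for 23 and negative for 22, and 32 lay within 0.5 of no difference. The median was 0.01, beside 0.07 over all genes tested, with a median approximate standard error (SE) of 0.44 per member.

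In 6 of the 45 tested members (13.3%) every cKO library lay above every WT library, and in 2 (4.44%) every cKO library lay below. Over all genes tested these shares were 10.4% and 9.45%. In either direction 17.8% of the tested members and 19.8% of all genes had groups that did not overlap. The members above were Eef1a1, Eif1ad, Eif2s3x, Eif4a2, Eif4e2 and Eif4g1, and those below were Eif1ax and Eif2b4. In TPM, 5 of these 8 were still without overlap, while Eef1a1, Eif4e2 and Eif1ax overlapped. The members' share in either direction was close to that of all genes.

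**Figure D1:**
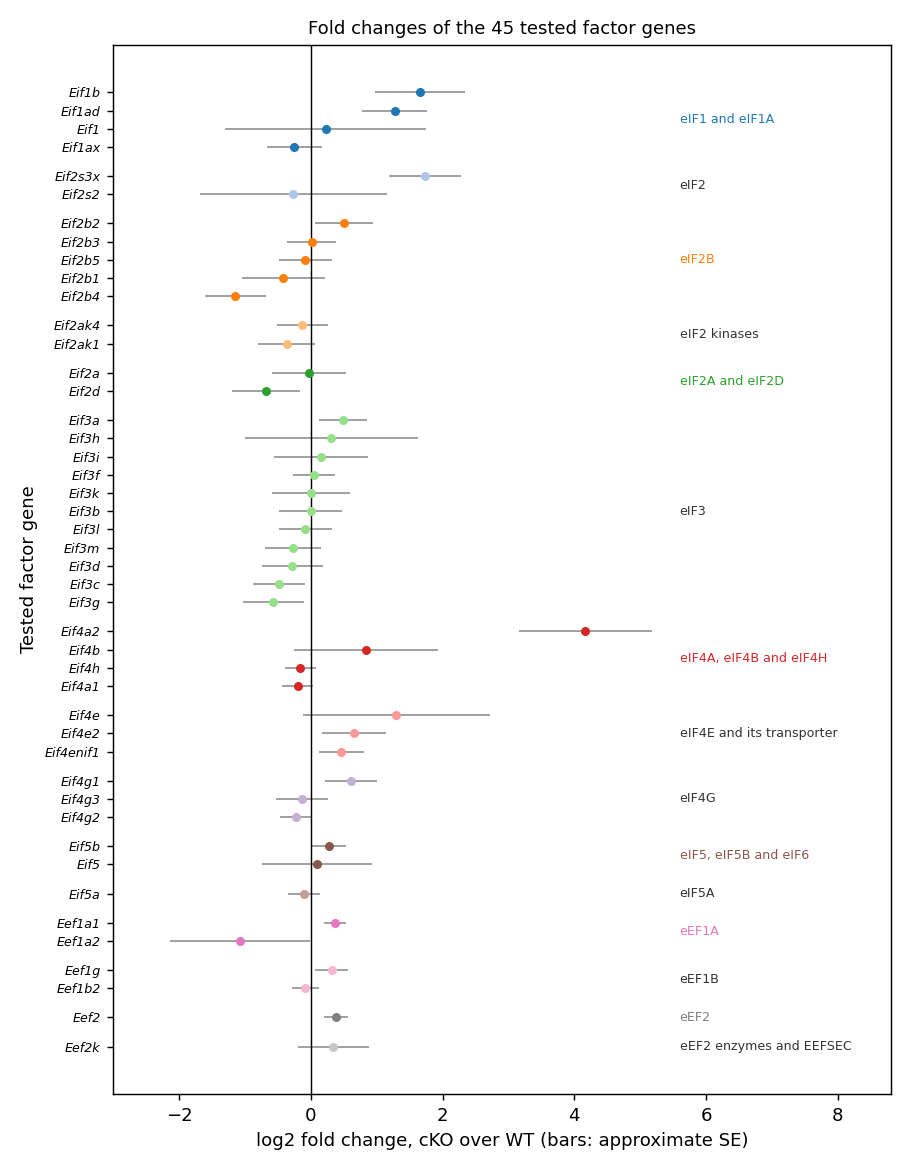
Log2 fold change of cKO over WT (horizontal axis) for each of the 45 tested factor genes, grouped by complex, with bars of 1 approximate SE from edgeR. Most points lie near 0, and Eif4a2 at 4.17 lies farthest from it, with an adjusted p of 0.181 in the edgeR test.

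**Figure D2:**
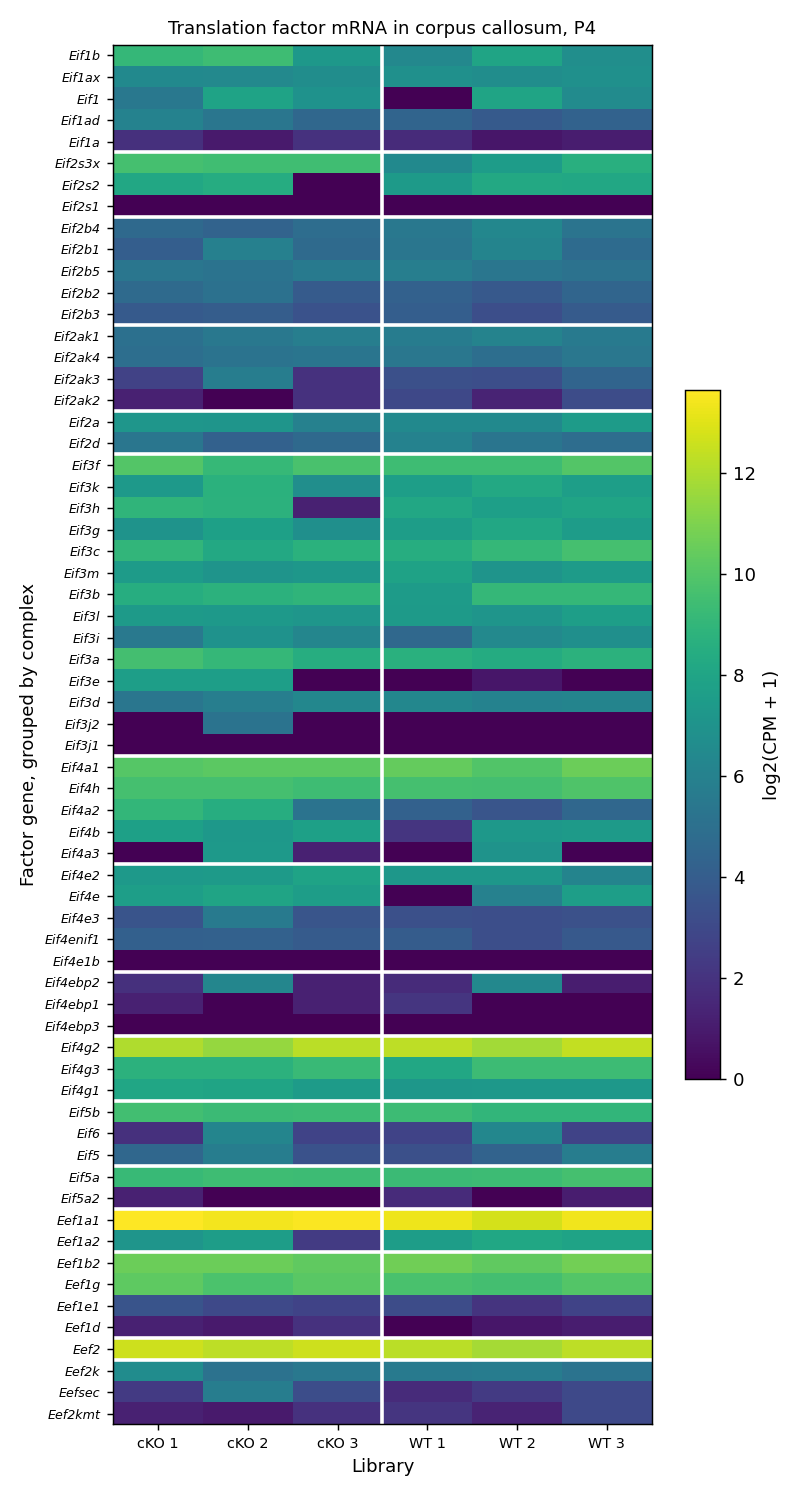
Level of every factor gene with a row for each of the 64 members and a column for each library, cKO on the left and WT on the right, as log2(CPM + 1). Colours are best compared along a row, since CPM is not per length; dark cells beside bright ones in a row, as in Eif3e, Eif2s2 or Eif4a3, are libraries at or near 0.

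Among the 45 tested members, the helicase gene Eif4a2 of the eIF4F group had the largest fold change. eIF4A is the RNA helicase that unwinds the 5′ end of mRNA, and Eif4a1 and Eif4a2 encode closely related forms of it, the second of which is known to be abundant in brain. Eif4a2 (chr16:23107468-23114132 on GRCm38) had 527, 364 and 35.4 CPM in cKO replicates 1 to 3, against 18.0, 11.2 and 22.1 CPM in WT. Every cKO library lay above every WT library, but cKO replicate 3 lay close to WT. The means were 309 ± 250.5 CPM in cKO and 17.1 ± 5.49 in WT (SD, n = 3 each), a log2 fold change of 4.17 (SE 1.01) with an adjusted p of 0.181 in the edgeR test. Over the alternatives the adjusted p ran from 0.00192 with DESeq2 to 0.510. Without cKO replicate 3 the edgeR test called Eif4a2 higher, with a log2 fold change of 4.71 and an adjusted p of 0.0411, where it called 0.42% of 6662 genes higher and 0.21% lower. Without cKO replicate 1 the log2 fold change was 3.43. Replicate 3 of cKO was high for the excitatory neuron markers, which lay at 4729 to 5299 CPM in all 3 cKO libraries.

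Eif4a1 (chr11:69666936-69672423) did not share this pattern. It had 1051, 1159 and 1181 CPM in cKO and 1385, 990.4 and 1521 CPM in WT, with overlapping groups and a log2 fold change of -0.20 (SE 0.23; adjusted p = 0.819, edgeR). On the per-length scale, Eif4a2 made up 26.8%, 19.5% and 2.24% of the summed Eif4a1 and Eif4a2 TPM in cKO, against 0.987%, 0.864% and 1.11% in WT. The pair was thus mostly Eif4a1 in all 6 libraries. Eif4a1, Eif4a2 and 8 other members have a near-identical stretch in an annotated pseudogene (at least 98% identity over 200 bases), so the division of reads is an estimate. The 8 others are Eef1a1, Eef1b2, Eef1g, Eif1, Eif2s2, Eif2s3x, Eif3m and Eif4e, and the same limit holds for their values.

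The annotated Eif4a2 transcripts did not share the counts evenly. The transcript of 2229 bases with 10 exons had 235, 192 and 3.20 expected counts in cKO and 2.30, 1.18 and 5 in WT. The transcript of 2369 bases with 11 exons had 14.7, 137 and 21.8 in cKO and 13.7, 12.8 and 14 in WT. Most WT counts and those of cKO replicate 3 thus stood on the longer of these, while the shorter led in cKO replicates 1 and 2. A transcript of 3185 bases had 105 and 35.5 counts in these 2 libraries and 0 in the others, and 1 of 2476 bases had 37.1 counts in cKO replicate 1 only.

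**Figure D3:**
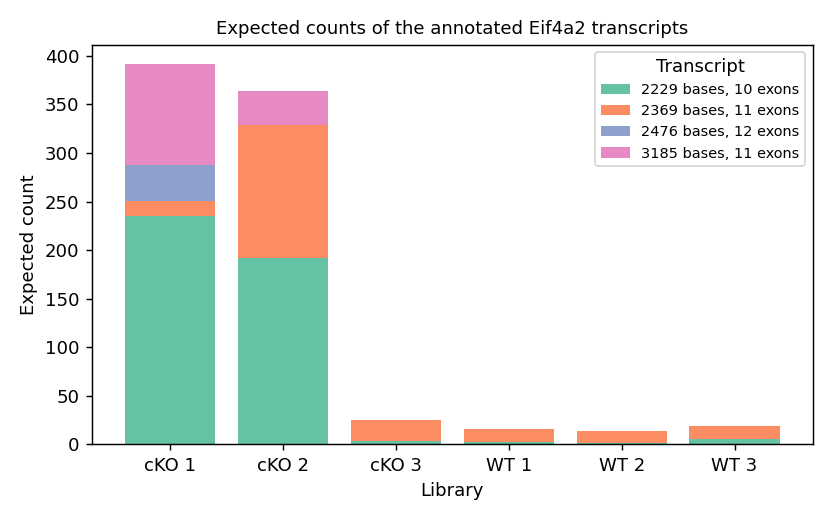
Expected counts of the 4 annotated Eif4a2 transcripts, stacked by library, with cKO on the left and WT on the right. The gene totals are 392, 364 and 25 in cKO and 16, 14 and 19 in WT, and the transcript of 2229 bases (10 exons) takes the largest part in cKO replicates 1 and 2.

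The helpers of the helicase had lower or patchy contrasts. Eif4h, whose product stimulates eIF4A, lay at 776, 793 and 668 CPM in cKO and 795, 749 and 958 CPM in WT. Eif4b, a second such stimulator, had 157, 155 and 154 counts in cKO and 3, 189 and 146 in WT, so that WT replicate 1 alone was low. Eif4a3, the related helicase of the exon junction complex, had 0, 161 and 1 counts in cKO and 0, 157 and 0 in WT. The counts of Eif4a3 thus came almost wholly from the replicate 2 libraries of both groups.

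The scaffold eIF4G joins the cap-binding protein to the helicase. Eif4g1 had 265, 251 and 178 CPM in cKO and 147, 154 and 152 CPM in WT, with no overlap and a log2 fold change of 0.61 (SE 0.39; adjusted p = 0.601, edgeR). Eif4g2, which encodes the DAP5 form that lacks the eIF4E-binding part, was the most abundant of the 3 per length and lay at 4167, 2877 and 4804 CPM in cKO against 5019, 3451 and 5366 CPM in WT. Eif4g3 had 429, 427 and 603 CPM in cKO and 292, 657 and 647 CPM in WT. Neither differed beyond the spread, with log2 fold changes of -0.22 (SE 0.25) and -0.13 (SE 0.40). Per length, Eif4g1 made up 8.29% ± 3.06 of the summed Eif4g1 and Eif4g2 TPM in cKO and 4.73% ± 1.19 in WT (SD, n = 3 each).

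The cap-binding proteins all had positive fold changes, with none past the threshold. Eif4e2, encoding a cap-binding protein that mostly represses translation, had 165, 174 and 236 CPM in cKO and 151, 146 and 69.8 CPM in WT, without overlap (log2 fold change 0.65, SE 0.49; adjusted p = 0.670, edgeR). Eif4e, the canonical cap-binding factor, had 202, 250.2 and 191 CPM in cKO and 0, 63.5 and 198 CPM in WT. The WT libraries differed among themselves more than the groups did, and the log2 fold change of 1.3 had an SE of 1.42. The transporter gene Eif4enif1, whose product carries eIF4E into the nucleus, lay at 14.1 to 18.0 CPM in cKO and 8.84 to 14.6 in WT. Together with Eif4e3, which had 8, 46 and 8 counts in cKO and 8, 11 and 8 in WT and was too sparse to test, these genes summed to 228 ± 44.0 TPM in cKO and 134 ± 18.1 in WT (SD, n = 3 each). Eif4e1b, a form known from oocytes, was listed at 0 in every library.

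The eIF4E-binding proteins, which mTORC1 phosphorylates to release eIF4E, could hardly be measured. Eif4ebp2, the main brain form, had 2, 75 and 1 counts in cKO and 2, 102 and 1 in WT. Its counts came from the replicate 2 libraries in both groups. Eif4ebp1 had at most 3 counts in any library, and Eif4ebp3 was listed at 0 in all 6. Over the 16 genes of the eIF4 family, 10 were tested, 6 had positive and 4 negative fold changes, and the median was 0.54 beside 0.07 over all genes. The summed level of the family was 2885 ± 405 TPM in cKO and 2953 ± 192 in WT (SD, n = 3 each), a difference smaller than the spread.

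eIF2 delivers the initiator tRNA, and its gamma subunit is encoded by Eif2s3x on the X chromosome, a gene known in mouse to escape X inactivation. Eif2s3x (chrX:94188709-94212651) had 789, 711 and 710 CPM in cKO and 87.6, 187 and 389 CPM in WT. The cKO libraries lay close together and all above WT, whose libraries spread widely. The means were 737 ± 45.6 CPM in cKO and 221 ± 153 in WT (SD, n = 3 each), with a log2 fold change of 1.74 (SE 0.54), an unadjusted p of 0.0159 and an adjusted p of 0.263 in the edgeR test. The adjusted p ran from 0.121 to 0.570 over the alternatives, and the log2 fold change was 2.42 without WT replicate 3. The Y-linked copy Eif2s3y had 0 counts in every cKO library and 54, 80 and 51 in WT. Summed over both copies, the level was 789, 711 and 710 CPM in cKO and 148, 251 and 448 CPM in WT. The order of the groups was thus the same with the Y copy added, and the part of sex in it was not tested.

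The other eIF2 subunits gave less. Eif2s2, the beta subunit, had 289, 351 and 0 CPM in cKO and 174, 303 and 292 CPM in WT, so that cKO replicate 3 alone was at 0. Its log2 fold change was -0.26 (SE 1.42) and became 0.33 without that library. Eif2s1, the alpha subunit that the stress kinases phosphorylate, was listed at 0 in all 6 libraries, although every cell uses it. Summed TPM of the eIF2 genes was 445, 454 and 343 in cKO and 147, 284 and 321 in WT. Eif2s3x held 288, 262 and 343 TPM of these sums in cKO and 37.1, 83.4 and 151 TPM in WT, so Eif2s2 held the larger part in each WT library.

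eIF2B recycles eIF2 by exchanging its GDP for GTP, and 5 genes encode it. All 5 were tested, with 2 positive and 3 negative fold changes and a median of -0.08. Eif2b4, the delta subunit, had 24.2, 19.0 and 28.3 CPM in cKO and 42.7, 77.9 and 37.2 CPM in WT. It was lower in each cKO library than in any WT library, with a log2 fold change of -1.14 (SE 0.46), an unadjusted p of 0.0437 and an adjusted p of 0.382 in the edgeR test. The remaining subunits ran from -0.42 for Eif2b1 to 0.50 for Eif2b2. Their levels were low, at 8.84 to 69.1 CPM over all libraries, and their groups overlapped.

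The eIF2 kinases, which slow initiation under stress, were also sparse. Eif2ak4 (GCN2, the amino acid sensor) lay at 29.6 to 38.2 CPM in cKO and 28.9 to 41.9 in WT. Eif2ak1 (HRI, the haem-regulated kinase) lay at 32.3 to 55.2 CPM in cKO and 47.7 to 67.5 in WT. Their log2 fold changes were -0.13 (SE 0.38) and -0.37 (SE 0.43), well within the spread. Eif2ak3 (PERK, the kinase of the endoplasmic reticulum) had 4, 53 and 2 counts in cKO and 8, 11 and 17 in WT, and Eif2ak2 (PKR, the kinase that binds double-stranded RNA) had 1, 0 and 2 in cKO and 6, 2 and 7 in WT. Of the genes that bind initiator tRNA apart from eIF2, Eif2a lay at 63.7 to 143 CPM in cKO and 86.5 to 177 in WT, and Eif2d at 18.0 to 40.3 CPM in cKO and 27.9 to 66.3 in WT.

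eIF1 and eIF1A govern how strictly the scanning ribosome picks its start codon. Eif1b, a paralog of Eif1, had 538, 673 and 156 CPM in cKO and 80.9, 245 and 107 CPM in WT. Replicates 1 and 2 of cKO lay above all WT libraries while cKO replicate 3 lay among them. The log2 fold change was 1.66 (SE 0.69), with an unadjusted p of 0.0475 and an adjusted p of 0.390 in the edgeR test, and was 2.28 without WT replicate 2. Eif1 had 43.0, 238 and 122 CPM in cKO and 0, 251 and 93.1 CPM in WT, a spread too wide for any contrast (log2 fold change 0.23, SE 1.52).

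Eif1ad, which encodes a protein with an eIF1A-like domain, had 64.5, 40.0 and 22.6 CPM in cKO and 20.2, 13.7 and 18.6 CPM in WT. The groups did not overlap, and the log2 fold change was 1.28 (SE 0.50) with an unadjusted p of 0.0380 and an adjusted p of 0.362 in the edgeR test. An antisense gene, Banf1, overlaps 15.3% of its exon bases, and the labels state no strand setting. In 8 members, Eif1ad included, antisense genes overlap at least 10% of exon bases. Among them are Eif1b (12.7%), Eif2ak1 (11.6%) and Eif5b (16.85%), whose values have the same limit. The X-linked Eif1ax, the main eIF1A gene, had 88.7, 86.1 and 100.4 CPM in cKO and 112, 102 and 113 CPM in WT, lower in each cKO library by a small amount (log2 fold change -0.25, SE 0.42; adjusted p = 0.897, edgeR). The fold change of Eif1ax was smaller than its SE, so its sign is not set against that of the other X-linked member, Eif2s3x. The part of sex in either value was not tested. Eif1a had at most 2 counts in any library.

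**Figure D4:**
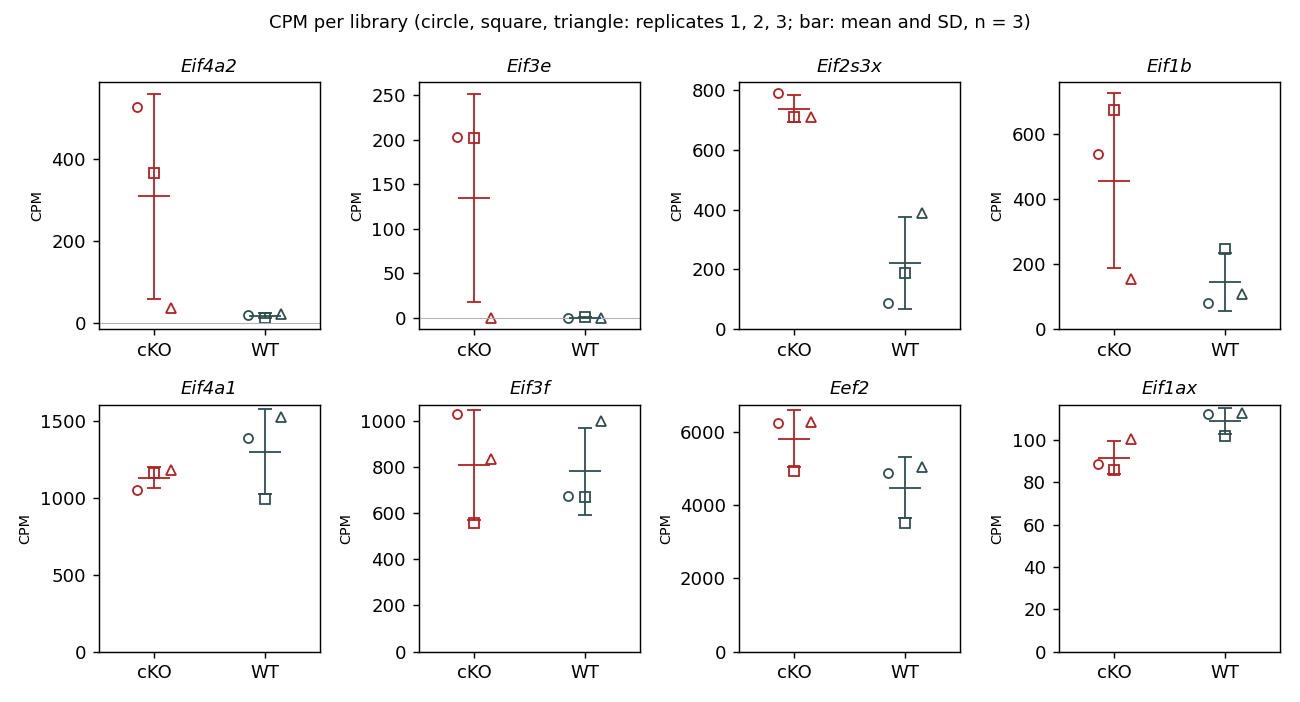
CPM of 8 factor genes in each library, cKO left and WT right, with points for replicates and bars for the mean and SD (n = 3 each). In Eif4a2, Eif3e and Eif1b the cKO replicates 1 and 2 lie high and replicate 3 lies near WT, while in Eif2s3x all 3 cKO libraries lie together at 710 to 789 CPM.

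eIF3 is the large scaffold that binds the small subunit, and 14 genes of the list encode its subunits. Of these, 13 had a count and 11 were tested, with 5 positive and 6 negative fold changes, none called, and a range from -0.57 to 0.49. The median was -0.00 (0.07 over all genes). The summed level was 3547, 3590 and 3003 TPM in cKO and 3132, 3769 and 3681 TPM in WT, and the groups overlapped. Eif3f, the most abundant subunit per length, had 1030 CPM in cKO replicate 1, 559 in cKO replicate 2 and 835 in cKO replicate 3, against 674, 672 and 999 CPM in WT (log2 fold change 0.05, SE 0.32). Eif3a, the largest subunit, stood highest at 0.49 (SE 0.36), and Eif3g, an RNA-binding subunit, lowest at -0.57 (SE 0.46).

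Eif3e was the exception in its counts, not among the tested genes. This subunit, which is known to contact eIF4G, had 151, 202 and 0 counts in cKO and 0, 1 and 0 in WT. The counts lay in cKO replicates 1 and 2, while cKO replicate 3 was at 0 like most of WT. The ratio of pooled counts, cKO over WT, was 431 with a 95% counting interval of 76.9 to 17090, which covers counting error only. The filter left Eif3e out of the edgeR test over 6 libraries. Eif3e entered DESeq2 and the edgeR test without cKO replicate 3 only through its 2 high cKO libraries, and the second of these leaves out the cKO library at 0, so its calls there are not read as a result. Eif3e was named after its values were seen.

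Eif3h, another subunit, had 364, 439 and 1 counts in cKO and 259, 260 and 216 in WT, and so was also nearly absent from cKO replicate 3. Eif3c, Eif3b, Eif3d, Eif3i, Eif3k, Eif3l and Eif3m were detected in every library, at 23.6 to 793 CPM, with log2 fold changes of -0.49 to 0.16. Eif3d shares 43.3% of its exon bases with an antisense gene, which limits its value. Eif3j1 was listed at 0 in all libraries, and its near-identical copy Eif3j2 had 36 counts in cKO replicate 2 and 0 elsewhere.

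Subunit joining and the release of the factors rest on eIF5 and eIF5B. Eif5b, the GTPase that joins the subunits, had 725, 618 and 645 CPM in cKO and 646, 504 and 496 CPM in WT, with a log2 fold change of 0.27 (SE 0.26; adjusted p = 0.758, edgeR). Eif5, which triggers GTP hydrolysis by eIF2, had 17, 55 and 7 counts in cKO and 8, 24 and 47 in WT, so the high library differed between the groups. Eif6, which keeps the large subunit free, had 2, 74 and 4 counts in cKO and 5, 98 and 5 in WT, again mainly in the replicate 2 libraries. Eif5a, whose hypusine-bearing product eases peptide bond formation, lay at 593, 674 and 659 CPM in cKO and 631, 646 and 795 CPM in WT (log2 fold change -0.11, SE 0.25). Its paralog Eif5a2 had at most 2 counts in any library.

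Elongation factors gave the highest levels of the set. Eef1a1 (chr9:78478453-78481724), the general eEF1A gene, ranked first of all members and alone held 33.8% to 45.7% of their summed TPM per library. It had 12787, 10906 and 11922 CPM in cKO and 9918 (replicate 1), 7065 and 10559 CPM in WT. Every cKO library lay above every WT library, by a small margin at the nearest pair, but in TPM the groups overlapped, with 10467, 8843 and 12956 in cKO and 9374, 6957 and 9191 in WT. The log2 fold change was 0.37 (SE 0.16), with an unadjusted p of 0.0590 and an adjusted p of 0.427 in the edgeR test.

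Eef2, the single translocase gene and second in level, had 6254, 4925 and 6271 CPM in cKO and 4872, 3513 and 5041 CPM in WT. The means were 5816 ± 772 CPM in cKO and 4476 ± 838 in WT (SD, n = 3 each), and the groups overlapped. The log2 fold change was 0.38 (SE 0.18), with an unadjusted p of 0.0797 and an adjusted p of 0.471 in the edgeR test. In both groups the replicate 2 library had the lowest Eef1a1 and Eef2 level. With upper-quartile scaling the all-gene median was -0.22. Relative to that median Eef2 then stood at 0.31, as under TMM scaling, and Eef1a1 at 0.28 in place of 0.30.

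Eef1a2 is the eEF1A paralog that takes over in mature neurons and muscle. It had 138, 195 and 4.24 CPM in cKO and 194, 280.3 and 239 CPM in WT, so cKO replicate 3 alone was near 0 with 3 counts. The log2 fold change was -1.07 with an SE of 1.06 (adjusted p = 0.770, edgeR), and -1.72 without cKO replicate 2. Per length, Eef1a2 made up 0.911%, 1.5% and 0.0302% of the summed TPM of both paralogs in cKO and 1.64%, 3.27% and 1.88% in WT. On this scale, which was not tested, each cKO library lay below each WT library, and Eef1a1 made up nearly all eEF1A mRNA in both groups.

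The eEF1B exchange factor was even between the groups. Eef1b2, a subunit that exchanges the nucleotide on eEF1A, had 1545, 1514 and 1258 CPM in cKO and 1635, 1263 and 1686 CPM in WT, a log2 fold change of -0.09 (SE 0.21). Eef1g, the gamma subunit, had 1226, 884 and 1143 CPM in cKO and 834, 749 and 1030 CPM in WT, a log2 fold change of 0.32 (SE 0.25; adjusted p = 0.686, edgeR). Eef1d, the delta subunit, had at most 2 counts in any library, spread over 8 annotated transcripts. Eef1e1, an auxiliary protein of the tRNA synthetase complex, had 4 to 8 counts in cKO and 4 to 7 in WT.

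Genes that act on the elongation factors were lower still. Eef2k, the kinase that phosphorylates and stalls eEF2, had 96.8, 34.0 and 43.8 CPM in cKO and 48.3, 53.0 and 36.1 CPM in WT, and the groups overlapped (log2 fold change 0.34, SE 0.54). Without cKO replicate 1, the high library, the fold change was -0.26. Eefsec, the elongation factor for selenocysteine, had 3, 55 and 6 counts in cKO and 2, 5 and 6 in WT, high in cKO replicate 2 alone. Eef2kmt, a methyltransferase of eEF2, had 1, 1 and 2 counts in cKO and 3, 2 and 6 in WT.

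Patchy detection ran through the set. Of 35 members with at least 100 counts in some library, 9 (25.7%) had 3 or fewer in another, beside 621 of 3330 genes (18.6%). These were Eef1a2, Eif1, Eif2s2, Eif3e, Eif3h, Eif4a3, Eif4b, Eif4e and Eif4ebp2. Such low counts fell 2, 0 and 6 times in cKO replicates 1 to 3 and 6, 1 and 3 times in WT, so they were fewest in the replicate 2 libraries. These limits of 100 and 3 counts were chosen after the values were seen. A library at 0 counts allows a level of up to 3 counts, which was 3.00 to 4.24 CPM in cKO and 2.41 to 3.49 CPM in WT and covers counting error only.

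Genes that work beside the factors were read from the same fit, and the edgeR test called none on any of 8 lists. Of the 5 tested genes of poly(A) binding, 3 had positive fold changes (median 0.43). Paip2, a repressor of the poly(A)-binding protein, had 156, 60.1 and 12.7 CPM in cKO and 14.6, 5.62 and 17.5 CPM in WT (log2 fold change 2.60, SE 0.94; adjusted p = 0.334, edgeR). Of 13 tested mTORC1 and MNK pathway genes, 6 were positive (median -0.06). Akt1, the kinase upstream of mTORC1, had 875, 690 and 248 CPM in cKO and 218, 178 and 225 CPM in WT (1.55, SE 0.50; adjusted p = 0.267, edgeR). Of the 11 helpers of scanning, 5 were positive (median -0.00). Bzw2, an eIF5 mimic, had 570.1, 444 and 151 CPM in cKO and 125, 77.9 and 135 CPM in WT (1.79, SE 0.58; adjusted p = 0.267, edgeR). As in Eif4a2 and Eif1b, cKO replicate 3 was the lowest cKO library in these 3 genes.

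The remaining lists also held no call. Of 21 tested cytosolic tRNA synthetase genes, which charge the tRNAs that eEF1A delivers, 8 had positive and 13 negative fold changes (median -0.11), with Rars at -0.86 (SE 0.44) and Eprs at -0.45 (SE 0.29). By CPM, in 5 of the 21 (23.8%, beside 9.45% of all genes tested) every cKO library lay below every WT library, and in 0 every one lay above. Of these 5, Cars and Farsa overlapped in TPM, while Eprs, Rars and Tars did not. Only 5 of 12 targets of the integrated stress response, the programme that eIF2 phosphorylation starts, could be tested (2 positive, median -0.02). Atf4, its central factor, had 0 to 1.41 CPM in cKO and 1.16 to 3.37 in WT, below the filter, and Asns, its asparagine synthetase target, had 17.5, 148 and 21.2 CPM in cKO and 24.7, 30.5 and 31.4 CPM in WT (log2 fold change 1.11, SE 0.87). Phgdh, its serine synthesis target and a gene that astrocytes are known to express, had 56.5, 3.00 and 0 CPM in cKO and 0, 365 and 321 CPM in WT (-3.53, SE 2.18; adjusted p = 0.584, edgeR), with libraries near 0 in both groups. Termination and recycling factors had 1 positive of 4 tested (median -0.12), with Etf1, the release factor, at -0.30 (SE 0.52). Mitochondrial factors had 3 of 4 (median 0.34), and both tested genes of hypusine and diphthamide synthesis were positive (median 0.58).

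The tetramer GGAC, the core of the most common m6A motif, was counted on the sense strand of each member's transcript to describe what the genes share. Its density was 1.92 to 9.99 per kilobase over the 45 tested members, with a median of 4.35, beside 4.24 over 5893 tested genes. Across the members, which are not independent replicates and share the same 6 libraries, density and log2 fold change had a Spearman correlation of -0.13 and a Pearson correlation of -0.16. Over all genes the Spearman correlation was -0.05. A match to these letters does not show a methylated site.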

How the data were processed

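RNA was sequenced from 3 cKO and 3 WT libraries of mouse corpus callosum, grouped by sample title. The submitters' processing notes name STAR 2.7.10b, RSEM 1.3.3 and mm10; the labels state no annotation release, strand setting or filter. Per the file headers, the authors deposited expected counts per transcript, which need not be whole, TPM values scaled to length and library total, the percent of a gene's level on each transcript, and, as other values, effective lengths, used here only for mean fragment length.

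For each gene, the expected counts of its transcripts were added up and rounded. The main test was the quasi-likelihood test of edgeR 4.0.16 in R 4.3.3, with TMM scaling and a minimum count of 10 in filterByExpr. It compared cKO with WT over all 6 libraries with no covariate, with Benjamini-Hochberg adjustment over 5918 genes and a threshold of 0.05. CPM uses the same scaling. The SE was worked back from the test's F and so restates the p-value. The test was tried on simulated data. By accession 24161 genes were matched to RefSeq, 157 by symbol, and 93 stayed unmatched; all 64 members matched. Near-identical copies were sought with blastn 2.17.0.

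Other settings tried were scaling by RLE or upper quartile, other filters, DESeq2 1.42.0, limma-voom, limma 3.58.1 on log2(TPM + 1), counts left unrounded, a replicate block, a term for the replicate 2 libraries or for few-exon loss, an adjusted p below 0.1, and leaving out libraries. Every pair of libraries differed by more than counting error. Members, lists, markers and named-gene rule were chosen with earlier results of these data known. The rule names members with an unadjusted p below 0.05, the highest TPM of each complex, all subunits of eIF2, eEF1 and eEF2, paralog pairs, X-linked members, eIF2 kinases, eIF4E-binding proteins and, per list, genes past the threshold or the 2 with the smallest p. Other members, and Atf4, were named after their values were seen, to account for the whole set.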

Additional observations from a re-analysis of the deposited data

How the results depend on the processing

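No named member was called to begin with, so none could lose a call. Of 450 refits of 25 named members under 18 alternatives, 432 kept their sign without a call, 2 were called and 16 changed sign. The calls were Eif4a2 with DESeq2 (log2 fold change 4.2) and without cKO replicate 3 (4.71). DESeq2 called 2 members higher in cKO, and leaving out 1 library gave 0 to 2 higher and 0 lower. The counts of 2 include Eif3e, whose calls are not read as a result. Under upper-quartile scaling the medians became 0.085 for eEF2, -0.41 for eIF3 and -0.19 for eEF1, where that of all genes became -0.22. That scaling also gave -0.21 for Eif3f and -0.035 for Eif5b, and limma on log2(TPM + 1) gave -0.026 for Eif3f. Leaving out each library in turn gave log2 fold changes of -0.21 to 0.013 for Eef1b2, -0.26 to 0.62 for Eef2k, -0.29 to 0.39 for Eif2a, -0.20 to 0.26 for Eif3f, -0.43 to 0.047 for Eif4g3, -0.49 to 1.53 for Eif1 and -0.81 to 0.33 for Eif2s2. Among members that kept their sign it moved the fold by more than 1.5 times in Eif4a2 (3.43 to 4.71), Eif2s3x (1.35 to 2.42), Eif1b (1.27 to 2.28) and Eef1a2 (-1.72 to -0.50). Without both replicate 2 libraries Eif4g3 was at 0.14.

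Over all genes, calls of higher and lower were 29 and 25. They were 12 and 10 with no filter, 12 and 10 with at least 1 CPM in 3 libraries, 182 and 108 with DESeq2, 11 and 8 with depth batch as a term, 12 and 7 with few-exon loss as a covariate, and 0 and 0 without both replicate 2 libraries. Leaving out 1 library gave 0 to 28 higher and 0 to 14 lower. With the replicate block they were 1 and 0, and no member was called. Same-numbered libraries deviated together with r of 0.0638, 0.462 and 0.162, so the numbers were not taken to pair the libraries. The cause of these shifts was not tested. Counts of 0 in the shallower libraries limit what can be said of members that few fragments reach.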
